A study of Aspergillus niger with 6 samples.

Results

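Aspergillus niger mycelium moved from seed to fermentation culture gave a larger part of its mRNA counts to 172 gene IDs that were already counted in seed culture. They were chosen by 3 criteria on CPM, an ID's counts scaled to a library total of 1000000. An ID starting with ANI_1_ was a member if its mean fermentation level was at least 300 CPM, its mean seed level was above 5 CPM, and the ratio of the means was at least 2. The 172 members are 172 of 10489 IDs starting with ANI_1_ and of 10505 IDs in all, and they are 172 of the 652 IDs that reached 300 CPM in fermentation. The values that chose them are the fermentation and seed means, so every fermentation over seed value of a member is given as a description, with no test.

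All 6 libraries came from mycelium of 1 engineered strain, RG0095, also written GR0095, made from ATCC 1015. The genotype was the same in both states, with oahA deleted and with pyc, mdhC and C4T318 behind the gpd promoter (Pgpd-C4T318) listed. Seed libraries were taken after 20 h in seed medium and fermentation libraries after 72 h in the fermentation medium that followed, with 3 biological replicates of each. As there was no parent strain and no second time within a state, the medium, the time and the age of the mycelium cannot be told apart. CPM measures a share of the mRNA counts, so a larger share, more RNA per cell and a changed mix of cells in the mycelium cannot be told apart either.

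Aspergillus niger is a filamentous fungus grown industrially for organic acids. In such a process a seed culture turns spores into growing mycelium, and the production culture then turns sugar into acid with less growth. L-malic acid can be made in the cytosol from pyruvate, which pyruvate carboxylase (pyc) converts to oxaloacetate and malate dehydrogenase (mdhC) reduces to malate. Oxaloacetate hydrolase (oahA) splits the same oxaloacetate into oxalate and acetate, and a C4-dicarboxylate transporter carries malate out of the cell. Which of these or other functions the members have is not given here, because 0 of the 172 IDs matched any of the 14404 genes of the RefSeq table for assembly ASM285v2 and the count table itself pairs no ID with a name. Members are therefore described by their ID, their rank and their values, and only 2 IDs are printed. For the same reason the deletion of oahA could not be checked in the counts. CPM is not corrected for gene length, so a rank by CPM ranks the counts a gene takes up, not transcripts per cell.

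The members took up 4.88%, 4.73% and 4.77% of the counts in seed replicates 1, 2 and 3, and 15.7%, 13.9% and 14.1% in fermentation replicates 1, 2 and 3. The means were 4.79 ± 0.0749% in seed and 14.6 ± 1.001% in fermentation (SD, n = 3), a difference of 9.76 percentage points and a ratio of 3.04. Fermentation replicate 1 was the highest library and the other 2 fermentation libraries were close together. The seed libraries differed by much less than the fermentation libraries. The states did not overlap, which the criterion on the ratio largely sets, so nothing is read from it. In counts, 838895 to 959533 reads per seed library and 2455285 to 2642298 per fermentation library fell on members. The median member lay at 194, 168 and 167 CPM in the seed libraries and at 554, 530 and 531 CPM in the fermentation libraries.

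**Figure D1:**
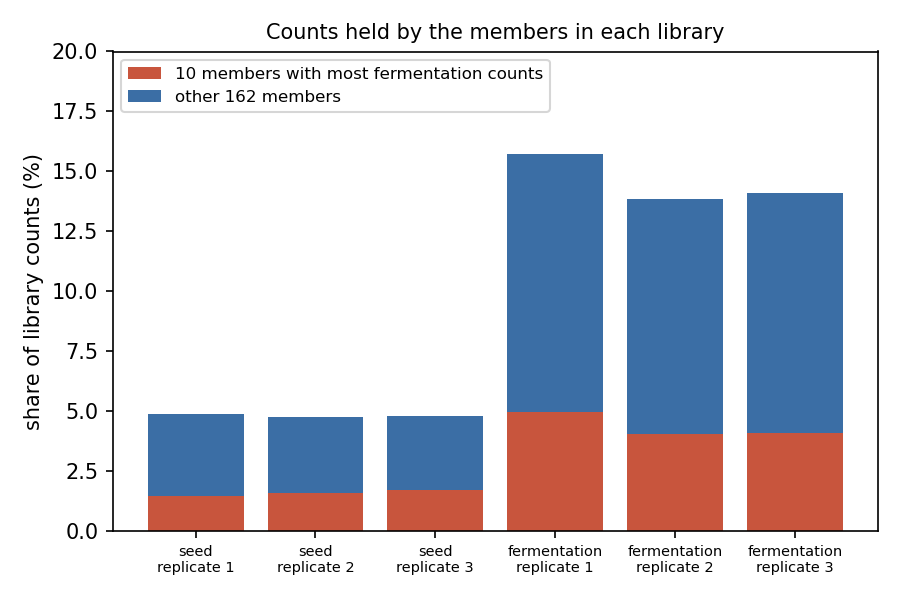
Share of each library's counts (percent, axis from 0) held by the 10 members with the most fermentation counts (red) and by the other 162 members (blue), 1 bar per library. The seed bars end between 4.73% and 4.88% and the fermentation bars between 13.9% and 15.7%, with fermentation replicate 1 the highest.

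The gain was spread over many members. The 10 members with the largest gain in mean CPM made up 29.3% of the summed gain, the 50 with the largest gain 60.04%, and the leading member alone 9.29%. The 10 members with the most fermentation counts went from 1.56 ± 0.113% to 4.36 ± 0.527% of the library (SD, n = 3), a ratio of 2.79. The other 162 members went from 3.23 ± 0.174% to 10.2 ± 0.475% (SD, n = 3), a ratio of 3.15. Within the members' own counts the 10 leading IDs held 32.6 ± 2.73% in seed and 29.9 ± 1.51% in fermentation. The effective number of members, which is the inverse of the summed squared shares and falls when few IDs dominate, was 57.4 ± 7.48 in seed and 60.3 ± 4.55 in fermentation (SD, n = 3). Both measures differed between states by less than 1 SD of the seed libraries. Library values of the effective number ran from 50.02 to 64.97 in seed and from 55.3 to 64.1 in fermentation, so the states overlapped.

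Most members changed by a small multiple from a sizeable seed level. The ratio of means was between 2 and 3 for 93 members (54.1%), between 3 and 5 for 49, between 5 and 10 for 15, and at least 10 for 15. The median ratio was 2.90, with quartiles of 2.31 and 4.18. The classes differed in their median seed level and had similar median fermentation levels. Median seed levels fell from 224 CPM in the class with the smallest ratios to 152, 72.2 and 36.8 CPM in the classes above it. Median fermentation levels of the same classes were 554, 576, 552 and 554 CPM. The criterion of 300 CPM in fermentation shapes this pattern, since an ID with a large ratio and a lower end point could not be a member. The class with ratios between 2 and 3 made up 43.3% of the summed gain and the class with ratios of at least 10 made up 10.2%.

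**Figure D2:**
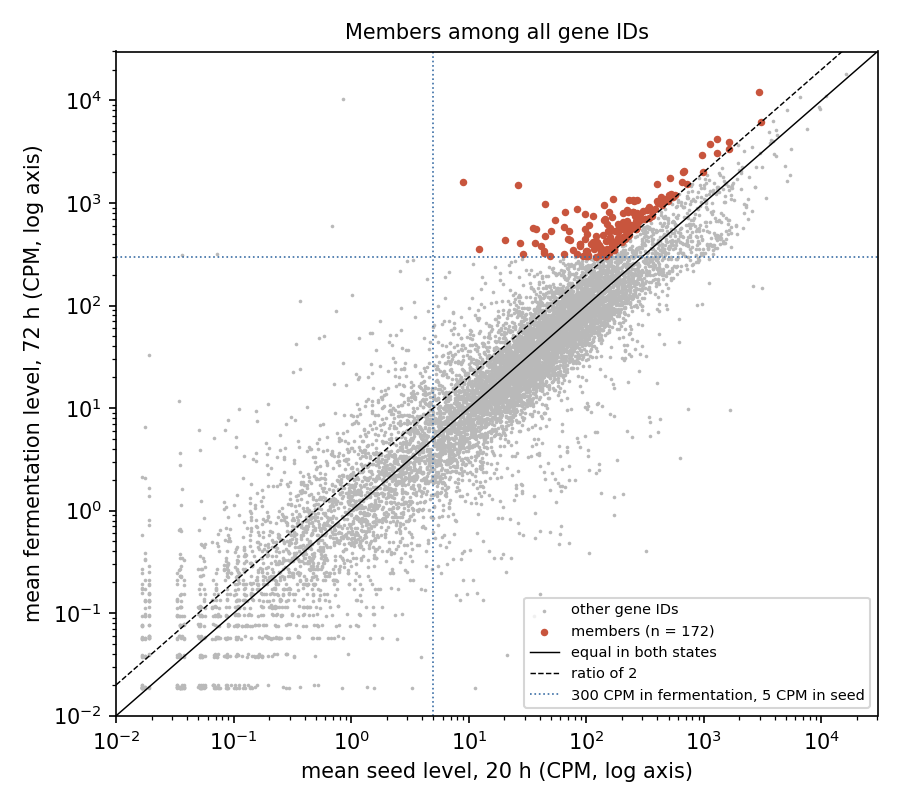
Mean seed level against mean fermentation level of each gene ID in CPM (both axes logarithmic), members in red and all other IDs that were counted in both states in grey. The solid line marks equal levels, the dashed line the ratio of 2, and the dotted lines 300 CPM in fermentation and 5 CPM in seed. Most of the 172 members lie close above the dashed line, with seed levels of 9.004 to 3048 CPM.

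By seed level, 16 members started below 50 CPM, 19 between 50 and 100, 101 between 100 and 300, 29 between 300 and 1000, and 7 above 1000 CPM. In other words 36 members already had at least 300 CPM in seed. The 7 members above 1000 CPM made up 24.2% of the summed gain, although their median ratio was 2.40. The 101 members of the class from 100 to 300 CPM made up 37.0% and had a median ratio of 2.76. The median ratio was 12.95 among the 16 members that started lowest. Across the 172 members, the order by seed level and the order by fermentation level were related at Spearman rho = 0.67, and ratio and fermentation level at rho = 0.03. These are descriptions over IDs of the same libraries, within bounds that the criteria set.

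The members moved up in the order of all 10505 IDs. The criteria on fermentation level and ratio largely set this rise, so nothing is read from it. Ranked by mean CPM, 4 members were among the first 100 IDs in seed and 20 in fermentation, and 27 were among the first 500 in seed and 136 in fermentation. The median rank was 1107 in seed and 296.5 in fermentation. None (0) was among the first 10 in seed and 2 were in fermentation, while the best seed rank of a member was 24.

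ANI_1_1186014 took the most fermentation counts of the members. It had 54924, 60221 and 50814 counts in seed replicates 1 to 3 and 218283, 207161 and 198461 in fermentation replicates 1 to 3. That is 2902, 2971 and 2888 CPM in seed and 12971, 11691 and 11316 CPM in fermentation. The 3 seed values were nearly equal, and each fermentation value was far above them. The ratio of means was 4.11, and its log2 fold change in edgeR, scaled by TMM (trimmed mean of M values), was 2.15 ± 0.14 (SE, n = 3 per state). It ranked 26 of all IDs in seed and 2 in fermentation.

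ANI_1_2284074 had the largest ratio. It had 161, 200 and 152 counts in the seed libraries and 26820, 30151 and 27192 in the fermentation libraries. These are 8.51, 9.87 and 8.64 CPM in seed and 1594, 1702 and 1550 CPM in fermentation. The values within each state lay close together, with a coefficient of variation of 8.34% in seed and 4.82% in fermentation. The ratio of means was 179 and the edgeR log2 fold change 7.59 ± 0.15 (SE). It ranked 6569 in seed, the lowest rank of any member, and 56 in fermentation. Its seed level was also the lowest of all members, so it lies closest to the seed criterion.

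The next members by fermentation counts rose by less and were spread more widely. The member ranked 2 by fermentation level stood at 2325, 3054 and 3766 CPM in seed and at 8428, 5055 and 5030 CPM in fermentation. Its ratio of 2.02 was the smallest of all members. The member ranked 3 stood at 1085, 1375 and 1396 CPM in seed and at 5463, 3817 and 3375 CPM in fermentation. Both were highest in fermentation replicate 1, and no seed value reached a fermentation value. The member ranked 5 had the opposite order, with 2440 CPM in fermentation replicate 1 against 4464 and 4305 CPM in replicates 2 and 3. Its seed values were 1075, 1244 and 1090 CPM.

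The 15 members with ratios of at least 10 had seed levels of 9.004 to 82.6 CPM and fermentation levels of 316 to 1615 CPM. The member with the second largest ratio, 57.7, stood at 27.1, 24.97 and 26.5 CPM in seed. Its fermentation values were 2193, 1010 and 1332 CPM, the highest in replicate 1. The member with the next largest ratio, 28.99, stood at 12.7, 13.2 and 11.03 CPM in seed. Its fermentation values were 247, 380 and 444 CPM, the lowest in replicate 1. Of the 15, 7 were above the mean of fermentation replicates 2 and 3 in replicate 1.

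**Figure D3:**
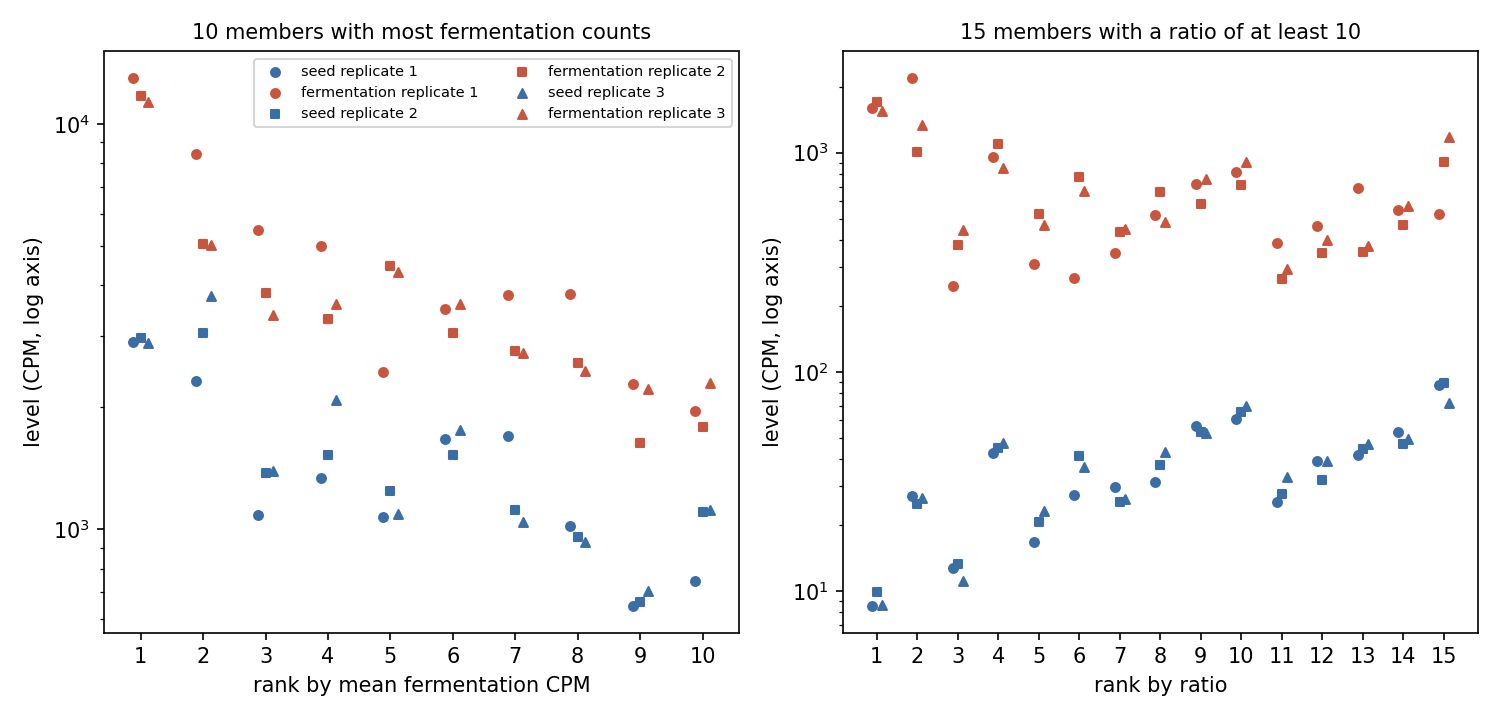
Level in CPM (logarithmic axes) in each of the 3 seed libraries (blue) and 3 fermentation libraries (red) for the 10 members with the most fermentation counts, left, and the 15 members with ratios of at least 10, right, where marker shapes are replicates. In each column the red markers lie above the blue ones, and red circles, fermentation replicate 1, stand highest in some columns and lowest in others.

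In the edgeR fit over all IDs 172 of 172 members were tested and 172 were called higher in fermentation at an adjusted p under 0.05, where 33.9% of the 8963 tested IDs were called higher. All 172 calls were of at least 2-fold, against 17.0% of all tested IDs. The criteria used this contrast, so nothing is read from these counts. The members' edgeR log2 fold changes ran from 1.13 to 7.59 with a median of 1.65, and the median over all tested IDs was 0.01. Their standard errors ran from 0.10 to 0.44 with a median of 0.16, close to the 0.15 of all tested IDs.

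Every fermentation library was above every seed library for 171 of the 172 members, as it was for 31.0% of all tested IDs. The exception ranked 141 by fermentation level and was singled out after its values were seen. It stood at 190, 166 and 165 CPM in seed and at 149, 391 and 560 CPM in fermentation, so that fermentation replicate 1 was below every seed library. Its coefficient of variation in fermentation, 56.3%, was the highest of all members. A stricter reading, added after the data were seen, asked each fermentation library for at least 2 times the seed mean. In replicates 1, 2 and 3 alone 159, 157 and 157 members reached it, where 13.9%, 16.3% and 15.4% of all tested IDs did. In all 3 replicates 137 members reached it, against 10.9% of all tested IDs. In 111 members each fermentation library had at least 2 times the level of every seed library, against 8.49% of all tested IDs. As the criteria used this contrast, nothing is read from these shares.

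The borders of the set were densely populated. The member closest to 300 CPM had 300.2 CPM, and the nearest ID outside that met the other criteria had 296 CPM. There were 16 members between 300 and 330 CPM and 17 such outside IDs between 270 and 300 CPM. The member closest to the ratio of 2 had 2.02, and the nearest ID outside had 1.9995. There were 31 members with ratios between 2 and 2.2 and 32 outside IDs with ratios between 1.8 and 2. The seed border was empty, with 9.004 CPM as the lowest member and 0.843 CPM as the highest of the 4 abundant IDs that failed the seed criterion alone.

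To measure the ratio in libraries that had not chosen the IDs, the criteria were applied to 2 libraries of each state and the ratio was read in the library left out of each state. With seed and fermentation replicate 1 left out, 174 IDs were chosen and their median ratio in the left-out pair was 2.79, against 2.80 in the libraries that chose them. With the replicates numbered 2 left out, 178 IDs had a median of 2.72 against 2.92, and with those numbered 3 left out, 164 IDs had 2.88 against 2.90. In each of the pairs the left-out median lay below the choosing one. Of the chosen IDs, 155 of 174, 164 of 178 and 152 of 164 were among the 172 members. The criteria themselves had been set with all 6 libraries known, so the left-out libraries were not independent of them.

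Single IDs were less stable than the medians. A ratio of at least 2 was met in the left-out pair by 137 of 174 IDs, where 13.8% of all tested IDs met it. It was met by 154 of 178 IDs, against 17.7% of all tested IDs, with the replicates numbered 2 left out. With those numbered 3 left out it was met by 144 of 164 IDs, against 17.5%. These are 78.7%, 86.5% and 87.8% of the chosen IDs. As the criteria came from this contrast in all libraries, nothing is read from these shares. In the pair of replicates 1, 2 of the 174 IDs were no higher in fermentation than in seed, with a lowest ratio of 0.635. In the other pairs each chosen ID was higher, with lowest ratios of 1.12 and 1.34. There is 1 library per state in each pair, so no test was made. The labels do not say whether equal numbers mark a shared culture.

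**Figure D4:**
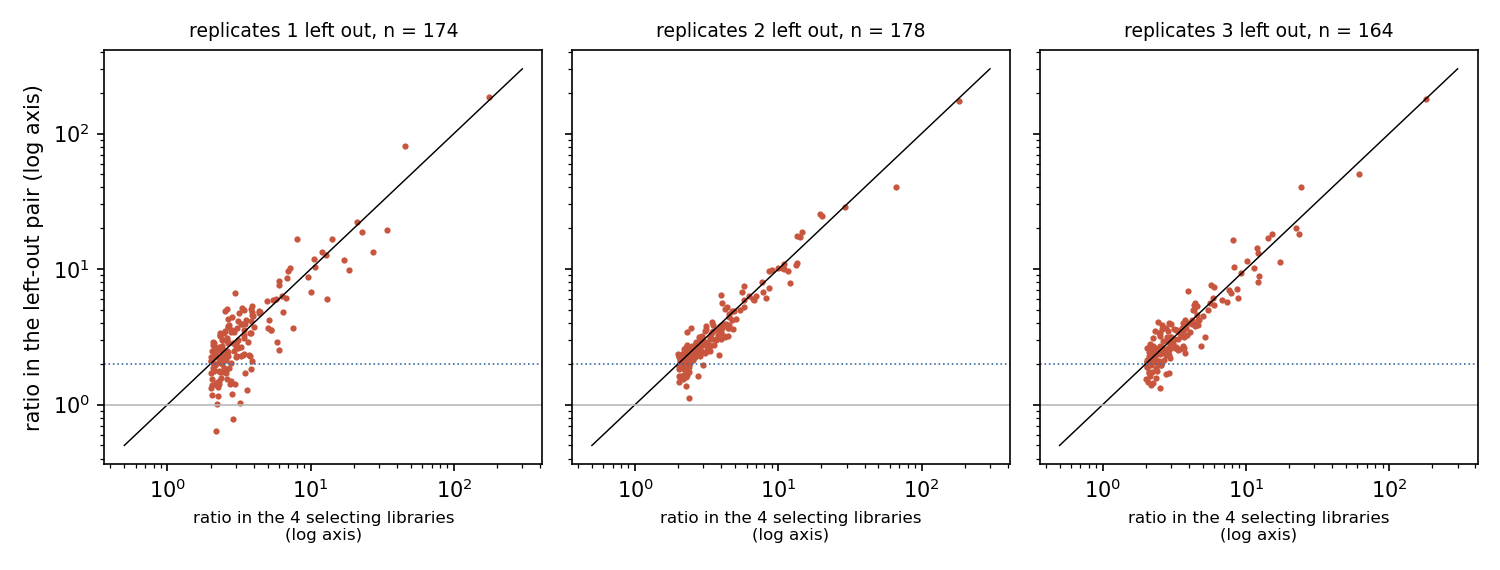
Ratio of fermentation over seed CPM in the 4 libraries that chose the IDs against the ratio in the left-out pair (both axes logarithmic), 1 point per chosen ID and 1 panel per pair. The solid line marks equal ratios, the dotted line a ratio of 2 and the grey line a ratio of 1; with replicates 1 left out the points scatter most widely, and 2 of 174 lie at or below 1.

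The criteria used the means and set no condition on the spread between replicates, although a high value in 1 fermentation library raises the mean and so helps an ID to pass. The median coefficient of variation of a member was 13.01% between fermentation libraries and 9.05% between seed libraries, and 108 of the 172 members (62.8%) varied more in fermentation. The 476 other IDs of at least 300 CPM in fermentation, whose ratio was below 2, had medians of 10.98% and 6.55%, and 332 of them (69.7%) varied more in fermentation. Their quartiles in fermentation were 6.89% and 16.3%, those of the members 8.56% and 19.8%, so the distributions overlapped widely. The difference was not tested, since IDs of the same libraries are not replicates. Between fermentation replicates 2 and 3 every member differed by less than 1.5-fold, as did 475 of the 476 other abundant IDs. Without fermentation replicate 1 the members' median coefficient of variation was 6.43%, so that library carried much of the spread.

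Fermentation replicate 1 moved members in both directions. It was the highest fermentation library in 91 members (52.9%) and the lowest in 48 (27.9%), while among the 476 other abundant IDs it was the highest in 35.7% and the lowest in 50.2%. These sets were chosen on means that include replicate 1, which sorts IDs that are high there into the members. With both sets chosen without that library, an alternative added after the data were seen, it was the highest in 45.7% and the lowest in 34.1% of 164 members. It was then the highest in 33.9% and the lowest in 52.4% of 496 other abundant IDs. The medians against replicates 2 and 3 were 1.04 and 0.934 in these sets, and the difference was not tested. In the sets chosen on all libraries the median member had 1.09 times the mean of replicates 2 and 3 there, and the median of the other abundant IDs was 0.944 times. With TMM scaling, under which this library has a factor of 0.879, the medians were 1.25 and 1.09, so the median of the other abundant IDs changed sides of 1 with the scaling and that of the members did not. By library totals 13 members (7.56%) were at least 1.5-fold higher in replicate 1 and 16 (9.30%) were at least 1.5-fold lower. Of the 476 other abundant IDs, 21 (4.41%) were higher and 24 (5.04%) lower by that much. With TMM these numbers were 36 and 8 for the members and 55 and 7 for the other abundant IDs.

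The members that were low and high in fermentation replicate 1 by library totals differed in median level. Their ratios overlapped widely. The 13 high ones had a median seed level of 269 CPM and a median ratio of 3.04 (2.02 to 57.7). They held 2.82% of the counts in replicate 1 and 1.72% and 1.71% in replicates 2 and 3. The 16 low ones had a median seed level of 97.1 CPM and a median ratio of 4.84 (2.11 to 28.99). These low ones held 0.737%, 1.36% and 1.37%. In replicate 1 the median low member was at 2.77 times its seed mean, and in replicates 2 and 3 it was at 5.87 times. Of these 16, 12 reached at least 2 times the seed mean in replicate 1. Of the 13 high ones, 9 reached it in the mean of replicates 2 and 3, so the remaining 4 would not be members without replicate 1. The cause was not tested.

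**Figure D5:**
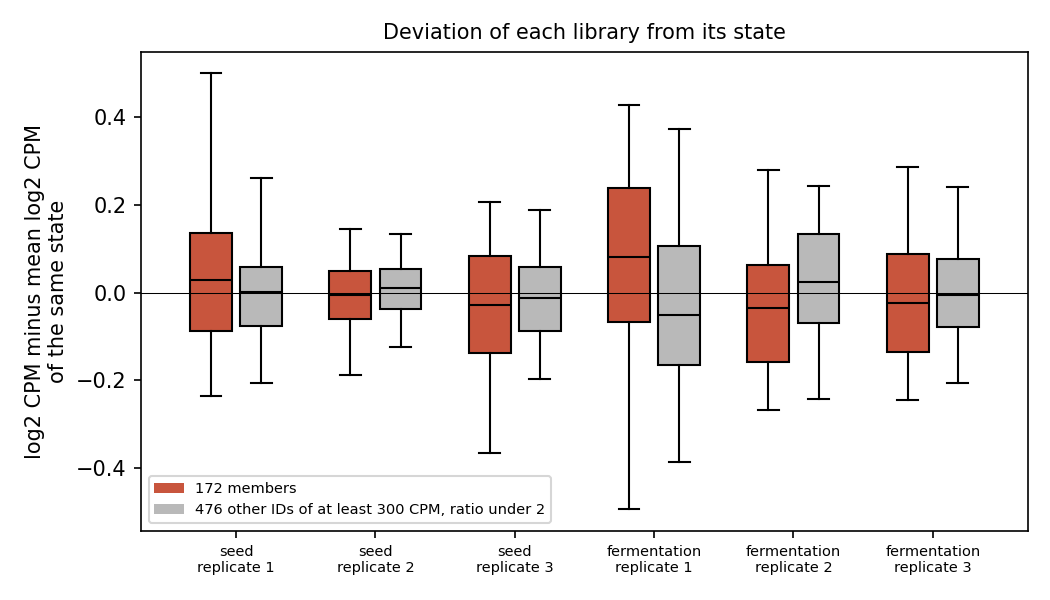
Deviation of each library from the mean log2 CPM of its state (log2 scale) for the 172 members (red) and the 476 other IDs of at least 300 CPM in fermentation with a ratio below 2 (grey). Boxes span the quartiles with the median as a line and whiskers the 5 to 95 percentiles; the widest member box is that of fermentation replicate 1, and it lies mostly above 0.

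Seed replicate 1 also stood out for a small group of members. It was the highest seed library in 83 members (48.3%) and in 168 of the 476 other abundant IDs (35.3%). In 14 members (8.14%) it was at least 1.5-fold above the mean of seed replicates 2 and 3. Of the 476 other abundant IDs, 4 (0.840%) were. In 5 members the seed coefficient of variation was above 40%, and in all 5 the highest value was that of seed replicate 1. Among the 476 other abundant IDs 2 were above 40%, and both were also highest in seed replicate 1. The member ranked 35 by fermentation level had the widest spread, with 823, 294 and 208 CPM in seed and 1050, 964 and 848 CPM in fermentation. The member ranked 30 stood at 805, 376 and 315 CPM in seed and at 1212, 1057 and 867 CPM in fermentation. Against seed replicate 1 alone the fermentation means of the 5 were 1.16 to 1.76 times as high, and against the mean of seed replicates 2 and 3 they were 2.65 to 3.92 times as high. These 5 members were chosen after their values were seen.

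The ID numbers were not used by the criteria. Each member's ID splits into a number and an ending of 3 digits, as do 10482 of the 10489 IDs. What the numbers mean is not stated in the files. Members occurred with every one of the 18 endings, from 0.513% of the IDs of an ending to 2.64%, where they are 1.64% of the IDs that split this way. Only 6 members (3.49%) had another member as their nearest ID by number within the ending. Of the 480 abundant IDs that were not members, 17 (3.54%) had a member as nearest ID, and of all 10310 other IDs 259 (2.51%) did. The 6 members formed 3 pairs, with ratios of 3.37 and 4.22, 2.62 and 2.67, and 7.45 and 11.02. No run was longer than 2. Counts by place on either side were added after the data were seen. Within 1 place 3.49% of the members had another member. Of the 480 abundant IDs 5.21% had a member there, and of all 10310 other IDs 3.21%. Within 2 places 17 members (9.88%) had another member, while 9.79% of the 480 abundant IDs and 6.24% of all 10310 other IDs had a member there. Of the 243 tested IDs next to a member that were not members themselves, 104 (42.8%) were called higher in the same fit, and their median log2 fold change was 0.17. Over all tested IDs these values were 33.9% and 0.01. For IDs next to other abundant IDs they were not computed. The nearest ID had at least 300 CPM in fermentation for 21 members (12.2%) and for 90 of the 480 abundant non-members (18.75%). These shares were not tested.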

How the data were processed

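Total RNA of mycelium was made into libraries with a stranded mRNA kit, as the labels state. In the deposited table the authors give raw read counts per gene ID, as whole numbers with no normalization. Tools in the submitters' processing notes are HTSeq, HISAT2, Trimmomatic, SAMtools, DESeq, Cufflinks, Bowtie2 and StringTie. No order, version, genome build, annotation or strand setting is given in the sources used here, so overlapping genes and near-identical copies may share reads. Library totals ran from 16828913 to 20267348 counts. All 6 columns were matched to samples by the labels.

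CPM were computed from library totals (pandas 2.3.3). IDs were tested with edgeR 4.0.16 in R 4.3.3 (quasi-likelihood test, TMM, group as the only term, filterByExpr with a minimum count of 10 and a minimum total of 15), which kept 8963 IDs. Calls used a Benjamini-Hochberg adjusted p under 0.05 over all of them. Standard errors were derived from the log2 fold change and the F statistic of the quasi-likelihood test. DESeq2 1.42.0, limma-voom (limma 3.58.1), other scalings, other criteria, a replicate block and leaving out each library were alternatives.

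Replicates of a state differed by a chi-square of 11.7 to 80.4 per degree of freedom, a statistic that covers counting error only, so no pair looked like 1 library deposited more than once. This statistic was taken over members and non-members together. It was 80.4 and 71.5 in the pairs with fermentation replicate 1 and 18.6 between fermentation replicates 2 and 3. In seed it was 28.7 and 40.9 in the pairs with replicate 1 and 11.7 between replicates 2 and 3. The labels call the libraries of a state biological replicates. The members, lists and tests were chosen with earlier results of these data known. The naming rule printed the member with the highest fermentation level and the one with the largest ratio; other members were described by rank. Lists of product words were planned and not used, as no ID could be paired with a product.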

Additional observations from a re-analysis of the deposited data

How the results depend on the processing

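The number of IDs that met the criteria followed the thresholds by construction, with 272 at a fermentation minimum of 200 CPM, 96 at 500 CPM, 263 at a ratio minimum of 1.5 and 79 at 3. TMM-scaled CPM gave 203 IDs and RLE-scaled CPM 206, and each included all 172 members. Medians in place of means gave 169, of which 159 were shared. Leaving out 1 library gave 164 to 180, with 156 to 167 shared, and the fewest shared without fermentation replicate 1. The median log2 ratio of the members was 1.54, with 1.65 under TMM and 1.65 under RLE scaling, and 1.46 to 1.59 with 1 library left out. For IDs chosen on 5 libraries and measured in the left-out one it was 1.43 to 1.60. The 10 most abundant IDs of either state included 2 members. With these IDs removed from the members and from the totals, the members' share of seed counts was 4.62%, against 4.79%. Their share of fermentation counts was then 14.4%, against 14.6%. With 1 library left out the shares were 4.75% to 4.82% in seed and 13.98% to 14.9% in fermentation.

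Between 169 and 172 members were called higher under the settings tried, against 28.2% to 34.1% of all tested IDs, and none had a fold change below 0. The criteria used this contrast. Without seed replicate 2, 169 were called, and DESeq2 called 171 and 31.01% of all tested IDs. The member ranked 35, highest in seed replicate 1, was the one not called by DESeq2. With 1 library left out 169 to 172 members and 2557 to 3068 of all IDs were called higher, and 163 to 170 members by at least 2-fold, against 16.04% to 17.3% of all tested IDs, with the fewest members without fermentation replicate 1. Equal replicate numbers are not tied to a shared culture by any label, and deviations of equal-numbered libraries correlated at 0.03 to 0.05. A replicate block called 172 members and 2985 of all IDs higher. Both printed IDs were called higher under each of these fits. The members' median coefficient of variation in fermentation was 17.9% under TMM and 6.43% to 14.3% with 1 fermentation library left out, lowest without replicate 1. With TMM-scaled CPM in the criteria, 9 of the 203 IDs chosen had another chosen ID as nearest ID, against 6 of the 172 members. Of the original members 17 had another member within 2 places. The lowest count of a member in any library was 152.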
